A study of Homo sapiens with 18 samples.

Results

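The genes described here are 52 components of the machinery that carries proteins and RNA between nucleus and cytoplasm: 28 nuclear pore proteins and 24 nuclear transport receptors. They were taken from a list of gene symbols and matched by Ensembl identifier in a table of 20263 genes, and all 52 were found and passed the filter on low counts. Gene expression was measured by RNA sequencing in 18 libraries from human cancer cell lines of labelled genotype WT. The labels name MHCC-97H as liver, MDA-MB-231 as breast and HCT-116 as colon cancer. Cells of each line were kept in medium with 10% serum and received either DMSO, the solvent, or H3B-8800 at 20 nM for 24 h. H3B-8800 is a small molecule that binds SF3B1, a core protein of the spliceosome, and changes how introns are recognised. Each of the 6 groups holds 3 libraries. Whether the 3 came from separate cultures is not in the labels. A p-value here therefore reflects variation among libraries, which may be technical.

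The nuclear pore complex is a ring-shaped channel through the nuclear envelope. Its scaffold is built from the Y complex, which forms the outer rings, and from the inner ring. Transmembrane proteins anchor it, and proteins with phenylalanine-glycine repeats fill the central channel. Filaments reach into the cytoplasm, and a basket reaches into the nucleus. Large cargo crosses only when bound to a receptor, most of which belong to the importin beta family. The small GTPase Ran, loaded with GTP in the nucleus, releases cargo from importins and locks it onto exportins. Importin alpha proteins are adaptors that link the classical nuclear localization signal to importin beta.

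Levels are given as CPM, counts divided by the size of the library, with the TMM factors of edgeR as a correction for library composition. Library totals ran from 28232315 to 41488278 counts, and the lowest group mean of any member was 4.42 CPM, for NUP35 in the MHCC-97H controls. In such bulk libraries, fewer cells with a transcript and less of it per cell cannot be told apart. Libraries with the HCT-116 label and those with the MDA-MB-231 label shared one expression profile. Across 11099 genes their median correlation over 36 pairs of libraries was 0.985. With MHCC-97H it was 0.559 for MDA-MB-231 and 0.555 for HCT-116. Of 6 intestinal epithelial markers, all were at 0 in every MHCC-97H library. Marker levels are here divided by the raw library total without TMM factors. The 6 summed to 1610 to 1690 CPM under HCT-116 and 1600 to 1660 CPM under MDA-MB-231. The largest part was KRT20 (means of 912 and 898 CPM), and CDX1 was at 0 under these labels too. Of 8 liver markers, 7 were at 0 in the MHCC-97H libraries, and their sum on the same raw scale reached at most 0.207 CPM there. It was 25.5 to 41.1 CPM under MDA-MB-231 and 32.6 to 40.5 CPM under HCT-116. Under these labels 0 of the 8 were at 0 in every library, but APOA2 had counts in only 1 library of each. Most of the sum came from ALB (means of 17.2 and 21.2 CPM) and APOB (10 and 10.6 CPM). Groups are therefore named by the line on their label, and the part that a mismatch of cells and labels has in any result was not tested. The share of counts from mitochondrially encoded genes was 1.14% to 1.22% in the MHCC-97H controls and 1.37% to 1.39% in the treated libraries of that label.

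Under the MHCC-97H label, most transport receptors and many pore proteins were higher with H3B-8800. Of the 52 members, 33 passed the test (edgeR quasi-likelihood F test, Benjamini-Hochberg adjusted p under 0.05 over 14234 genes). This is 63.5% of the members, against 27.6% of all genes tested. Higher levels were found for 31 members, against 12.9% of all genes, and lower levels for 2, NUP85 and AAAS, against 14.7% of all genes. The median log2 fold change was 0.321 over the members and -0.058 over all genes, and single members ranged from -0.32 to 1.21. All 3 treated libraries lay above all 3 controls for 35 members, against 19.6% of genes, and below them for 2, against 28% of genes. The other 15 members overlapped between the groups.

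Under the MHCC-97H label the 52 genes together took 0.324% to 0.367% of the counts in the control libraries and 0.461% to 0.481% in the treated ones. This share of the raw total uses no scaling factor, but it depends on what else a library holds. Treated and control libraries did not overlap in it. They did not overlap under MDA-MB-231 either, in the other direction, with 0.534% to 0.557% in controls and 0.49% to 0.525% in treated libraries. With scaling by library totals in place of TMM, 37 members were higher and 0 lower under MHCC-97H, against 20% of all genes called in either direction. That scaling also moved the share of higher genes among all called genes from 46.7% to 87.8%, and the median over the members was then 0.458.

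Of 24 receptors 18 were higher and 0 lower, with a median of 0.399. Of 28 pore proteins 13 were higher and 2 lower, with a median of 0.21. All 6 importin alpha genes and all 3 nuclear basket genes were higher. The central channel and the transmembrane proteins each had 1 higher member, NUP58 of 4 and NDC1 of 3. The difference between receptors and pore proteins was not tested. In a fit with a trend on transcript GC content and length taken out of each library, termed GC-corrected, 20 members were higher, among them 3 of the 6 importin alpha genes and 1 of the 3 basket genes.

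**Figure D1:**
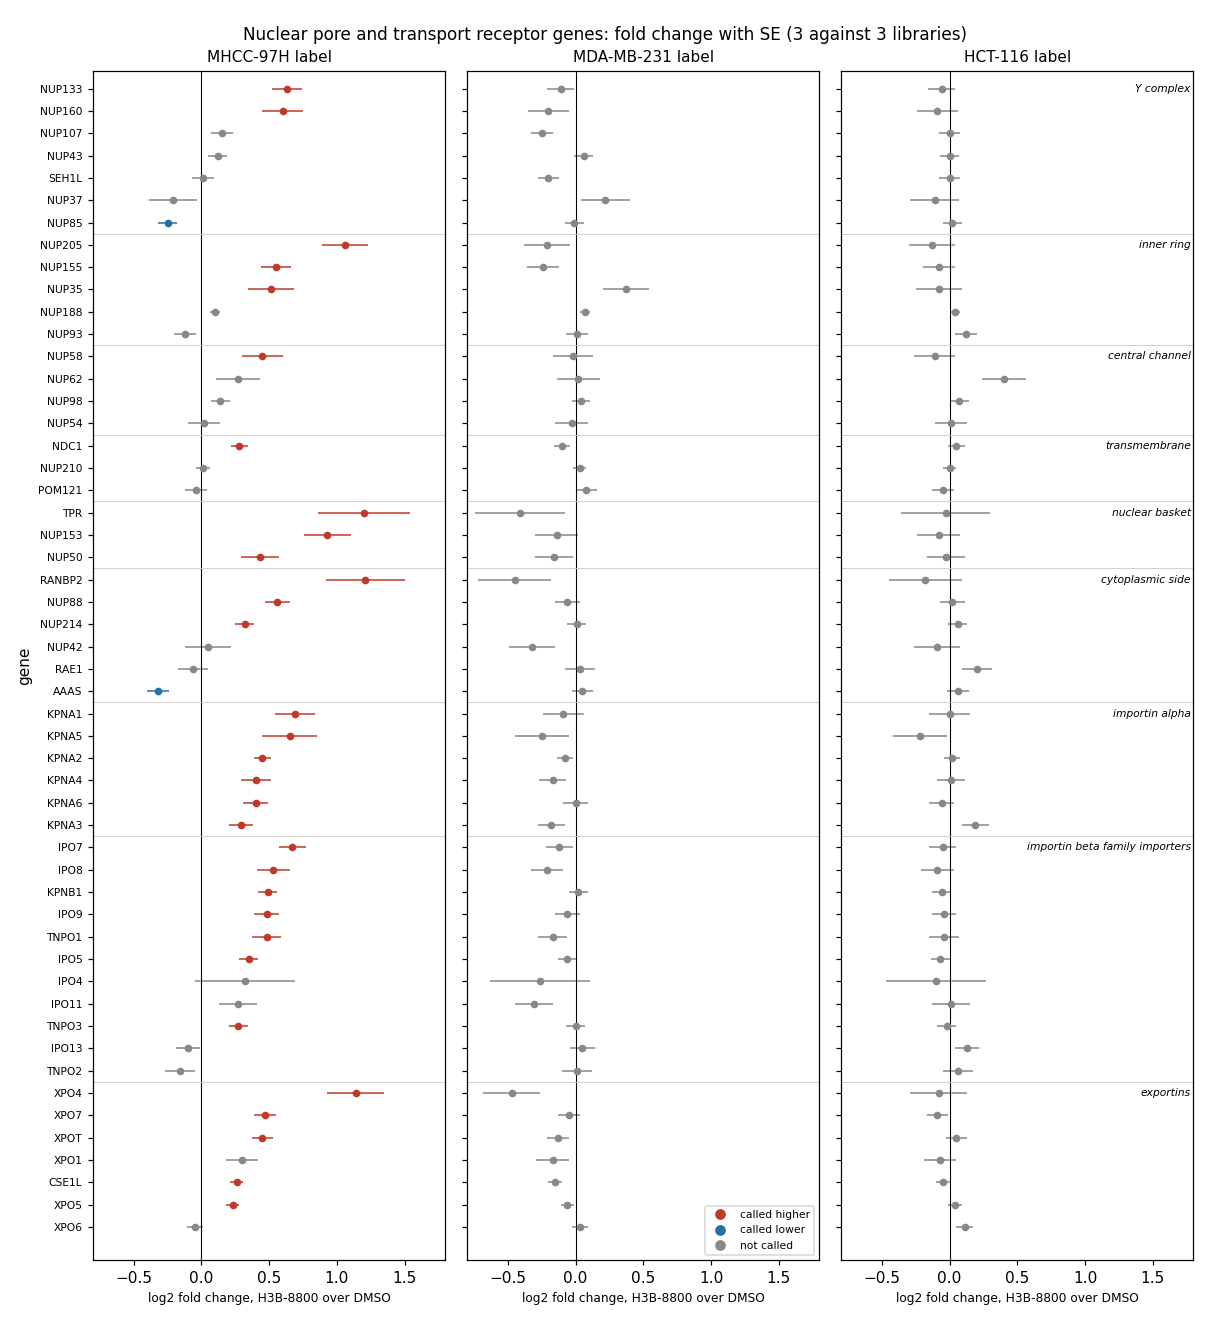
The log2 fold change of H3B-8800 over DMSO (x axis) for each of the 52 genes (y axis, by role) under the 3 line labels, with bars of 1 SE from the fit of 3 against 3 libraries. Under the MHCC-97H label 31 genes were called higher (red) and 2 lower (blue), and under the other labels 0 were called (grey).

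Promoter windows from RefSeq (GRCh38.p14, 250 bases before to 50 after the annotated start) matched 47 of the 52 members with 59 windows. The bases before the start are shown for TPR and RANBP2, the members with the largest rise under the MHCC-97H label, for KPNA2, the member with the smallest adjusted p, and for AAAS, which had the lowest fold change. They lie at chr1:186375254-186375503 on the minus strand for TPR, chr2:108719232-108719481 on the plus strand for RANBP2, chr17:68035485-68035734 on the plus strand for KPNA2 and chr12:53321611-53321860 on the minus strand for AAAS. Capitals mark matches, on either strand, to any of the 4 motifs searched.
TPR: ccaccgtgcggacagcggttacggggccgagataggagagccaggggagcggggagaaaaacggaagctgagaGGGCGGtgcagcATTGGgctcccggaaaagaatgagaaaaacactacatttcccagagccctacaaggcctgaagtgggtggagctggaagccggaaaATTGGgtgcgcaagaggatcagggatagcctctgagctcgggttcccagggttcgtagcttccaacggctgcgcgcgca
RANBP2: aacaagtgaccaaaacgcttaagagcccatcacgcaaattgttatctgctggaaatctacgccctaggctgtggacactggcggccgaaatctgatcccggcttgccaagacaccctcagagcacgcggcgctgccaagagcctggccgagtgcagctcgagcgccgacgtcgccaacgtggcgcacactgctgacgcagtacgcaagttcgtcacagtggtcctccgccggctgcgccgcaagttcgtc
KPNA2: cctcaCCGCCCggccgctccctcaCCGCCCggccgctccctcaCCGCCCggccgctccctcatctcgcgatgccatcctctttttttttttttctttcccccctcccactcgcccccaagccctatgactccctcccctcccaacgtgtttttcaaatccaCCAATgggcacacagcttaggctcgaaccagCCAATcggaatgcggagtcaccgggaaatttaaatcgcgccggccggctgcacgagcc
AAAS: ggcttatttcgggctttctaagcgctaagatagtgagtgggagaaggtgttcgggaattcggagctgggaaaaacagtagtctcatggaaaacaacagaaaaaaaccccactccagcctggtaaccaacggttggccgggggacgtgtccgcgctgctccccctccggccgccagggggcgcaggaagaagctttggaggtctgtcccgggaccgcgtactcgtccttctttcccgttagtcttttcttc
The motifs were the CCAAT box (CCAAT), the GC box (GGGCGG), an ETS site (CCGGAAG) and the TATA box (TATAAA). The stretch before the TPR start holds 2 CCAAT boxes and 1 GC box, and that of KPNA2 holds 2 CCAAT boxes and 3 GC boxes, the latter within a repeated unit. No match was found for RANBP2 or AAAS, which says only that these letters are absent from the stretch. Over whole windows, the ETS letters were in 25.4% of the member windows and in 10.3% of all 35116 windows. The CCAAT box was in 42.4% of member windows and 34.6% of all, the GC box in 50.8% and 45.0%, and the TATA box in 6.8% and 11.5%. These matches are a description of letters, and their part in the response was not tested.

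All 3 nuclear basket genes were called higher under the MHCC-97H label, and 1 of them, NUP153, in the GC-corrected fit. TPR, the long coiled-coil protein that forms the basket filaments, was at 24.1, 15.3 and 16.3 CPM in the DMSO libraries and at 42.6, 41.3 and 44.7 CPM with H3B-8800. NUP153, which ties the basket to the pore, went from 30.9, 20.1 and 21.5 to 47.8, 47.4 and 42.8 CPM. NUP50, a mobile pore protein that helps release importin alpha from its cargo, was at 22.2, 17.6 and 13.3 CPM in controls and 24.8, 22.5 and 24.3 CPM in treated libraries. In each of the 3 genes every treated library lay above every control, narrowly so for NUP50. The log2 fold changes were 1.20 ± 0.34 for TPR (SE of the fit, adjusted p = 0.018), 0.93 ± 0.17 for NUP153 (adjusted p = 0.0025) and 0.43 ± 0.14 for NUP50 (adjusted p = 0.038). The first control library was the highest of the 3 in each case. Without control library 2 or without control library 3, the adjusted p of TPR was 0.072, and with limma voom it was 0.071. GC-corrected, TPR was at 0.78 (adjusted p = 0.056) and NUP50 at 0.16 (adjusted p = 0.5), and NUP50 also lost its call in a separate fit of the 6 libraries (adjusted p = 0.084). Of the 3 genes, 1 was called without control library 2 and 1 without control library 3. NUP50 kept its call in 1 of the 6 fits that each left out a library, the one without control library 1, and its adjusted p without control library 3 was 0.16. TPR overlaps exons of PRG4 in the annotation, and the strand setting of the counting is not given in the sources used here.

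On the cytoplasmic face, 3 of 6 genes rose and 1 fell. RANBP2 is the main protein of the cytoplasmic filaments, binds Ran and acts as a SUMO ligase. It was at 8.25, 5.28 and 7.47 CPM in controls and at 16.6, 16.9 and 15.4 CPM after treatment, with no overlap and a log2 fold change of 1.21 ± 0.29 (adjusted p = 0.009). This was the largest rise of any member, from one of the lowest control levels per length. NUP88 and NUP214 form a subcomplex that binds messenger RNA export factors. NUP88 was at 32.7, 24.8 and 25.9 CPM in controls and 40.7, 40.7 and 41.7 CPM with the compound (0.56 ± 0.09, adjusted p = 0.0017). NUP214 was at 43.5, 39.2 and 43.9 CPM and 55.6, 48.7 and 53.8 CPM (0.32 ± 0.07, adjusted p = 0.0055). For both genes the treated libraries all exceeded the controls, and NUP214 lost its call in the GC-corrected fit (0.19, adjusted p = 0.057). AAAS encodes ALADIN, the protein mutated in triple A syndrome. It moved the other way, from 60.2, 65.6 and 64.4 CPM in controls to 50.5, 50.1 and 51.2 CPM, with every treated library below every control (-0.32 ± 0.08, adjusted p = 0.011). With scaling by library totals the AAAS value was -0.19 with an adjusted p of 0.096, and GC-corrected it was -0.09 (adjusted p = 0.36). NUP42 (0.05 ± 0.17) and RAE1 (-0.06 ± 0.11), which also act in messenger RNA export, did not pass the test.

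The counts of RANBP2 are uncertain because the RGPD genes are near-identical partial copies of it. Of the 7 RGPD genes tested, RGPD5 (1.19 ± 0.29, adjusted p = 0.0092), RGPD6 (1.27 ± 0.25, adjusted p = 0.0038) and RGPD8 (1.26 ± 0.32, adjusted p = 0.012) were called higher, each by about the size seen in RANBP2. Their control levels were low, for example 4.3, 1.91 and 3.58 CPM for RGPD5, and its treated libraries were at 7.69, 7.65 and 7.11 CPM. How reads were shared between these copies is not given in the sources used here. POM121 has such a copy too, POM121C, which was at 0.01 ± 0.06.

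**Figure D2:**
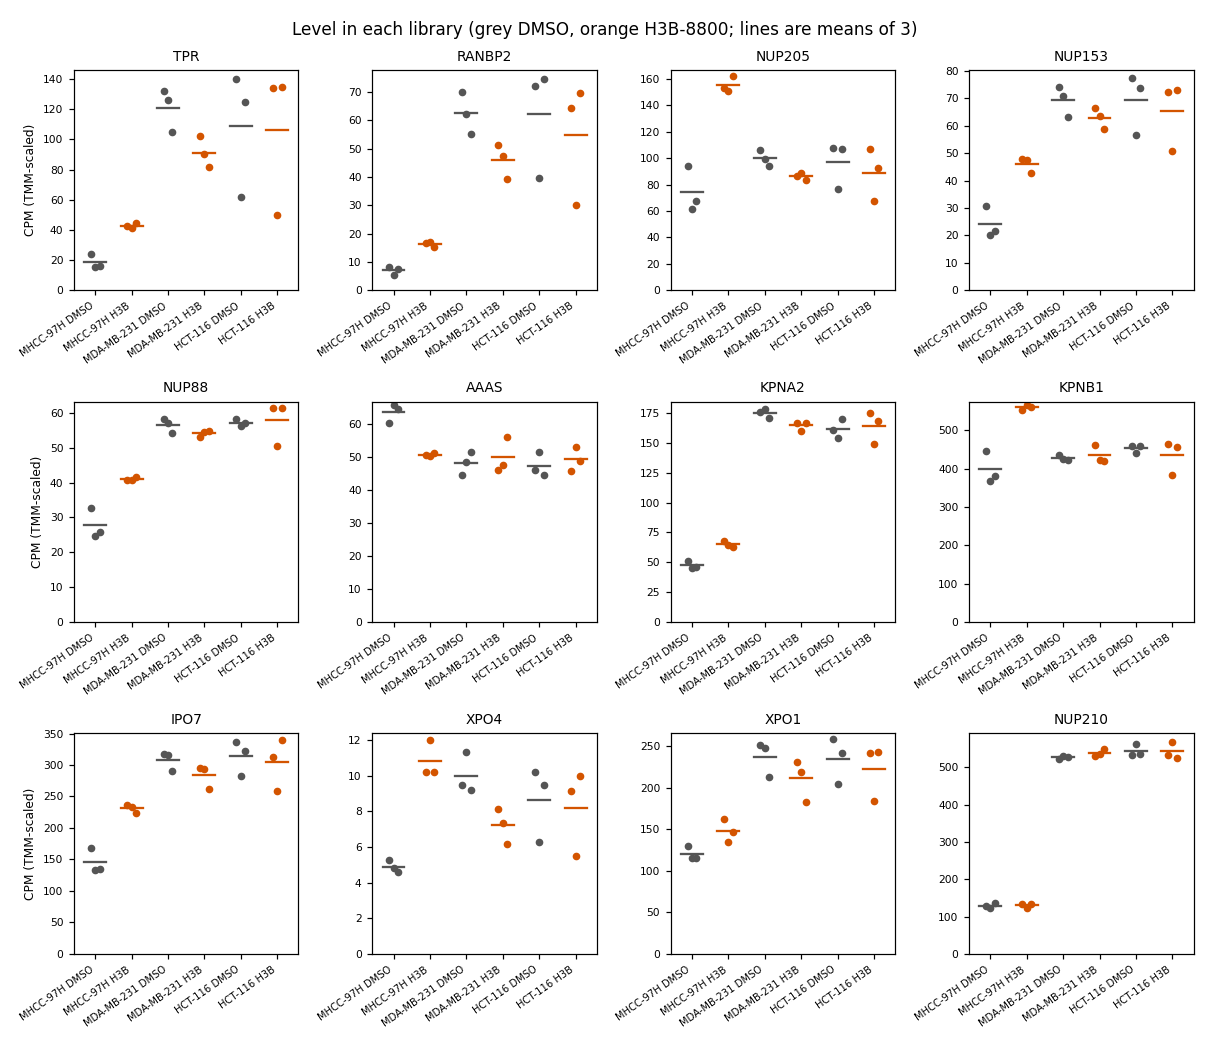
TMM-scaled CPM (y axis, linear from 0) of 12 of the genes in each of the 18 libraries, grouped by line label and treatment, with points for libraries and lines for means of 3. For TPR, RANBP2, NUP205 and XPO4 the treated MHCC-97H libraries all lie above the controls, AAAS shows the opposite order, and the second HCT-116 library of each treatment is low for TPR and RANBP2.

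Within the inner ring, 3 of 5 genes rose under the MHCC-97H label. NUP205 and NUP188 are large paralogous scaffold proteins. NUP205 was at 94, 61.8 and 67.7 CPM in controls and 153, 151 and 162 CPM with H3B-8800, a log2 fold change of 1.06 ± 0.17 (adjusted p = 0.0017). NUP188, at 243, 221 and 232 CPM and 253, 238 and 257 CPM, overlapped between the groups, had a fold change of 0.10 ± 0.04 and did not pass the test (adjusted p = 0.093). The paralogs thus had separate intervals, 0.69 to 1.42 for NUP205 and 0.01 to 0.20 for NUP188 (95% of the fit), although the difference between them was not itself tested. NUP188 is one of the members called in other settings, with adjusted p between 0.002 and 0.32 and a value between 0.07 and 0.24. NUP155, an inner ring protein that touches the membrane, was at 80.7, 69.7 and 69 CPM in controls and 108, 106 and 108 CPM after treatment (0.55 ± 0.11, adjusted p = 0.0046). NUP35, a small membrane-binding member, was at 5, 3.66 and 4.6 CPM and 5.65, 6.86 and 6.45 CPM (0.51 ± 0.17, adjusted p = 0.037). Its groups did not overlap, but its call was lost without control library 2 or 3 and without treated library 2 or 3, with an adjusted p of up to 0.14 in those fits, and also in the GC-corrected fit (0.34, adjusted p = 0.2), with a replicate block (0.074) and with limma voom (0.064). NUP93, the linker that holds the central channel complex, was at -0.12 ± 0.08 and did not pass.

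The Y complex was split. NUP133, at one tip of the Y, was at 27.9, 21.9 and 22.7 CPM in controls and 38.6, 37 and 36.4 CPM in treated libraries (0.63 ± 0.11, adjusted p = 0.002). NUP160, in the arms of the Y, was at 38.8, 36.2 and 33.7 CPM and 56.5, 54.8 and 53.8 CPM (0.60 ± 0.15, adjusted p = 0.0097). NUP85, which binds SEH1L in the other arm, was at 71.1, 77.8 and 72.9 CPM in controls and 63.6, 63 and 60.3 CPM with the compound. Both rising genes and the falling NUP85 showed no overlap between groups. NUP85 fell by 0.25 on the log2 scale, with an SE of 0.07 (adjusted p = 0.017), and lost its call without control library 2 (adjusted p = 0.075), without treated library 3 (adjusted p = 0.057) with library totals (adjusted p = 0.24), with upper-quartile factors (adjusted p = 0.054) and in the GC-corrected fit (-0.14, adjusted p = 0.08). NUP43 was at 29.2, 27.2 and 27.3 CPM and 30.7, 31 and 29.5 CPM (0.12 ± 0.07, adjusted p = 0.2). NUP107 (0.15 ± 0.08) and NUP37 (-0.21 ± 0.18) did not pass the test either. SEH1L, which also serves in a nutrient-sensing complex at the lysosome, was at 0.01 ± 0.08. In the GC-corrected fit NUP107 and SEH1L were called lower, and NUP43 was at -0.03.

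In the central channel, 1 of 4 genes passed the test. NUP58, which forms the channel complex with NUP62 and NUP54, was at 124, 116 and 116 CPM in controls and 161, 171 and 155 CPM with H3B-8800 (0.45 ± 0.15, adjusted p = 0.033). Its groups did not overlap, yet its call was lost in 5 of the 6 fits that each left out a library, all but the one without control library 1, with an adjusted p of up to 0.1, and in the GC-corrected fit (0.06, adjusted p = 0.74). NUP62 was at 32.2, 41.2 and 49.3 CPM and 49.8, 52.3 and 46.4 CPM (0.27 ± 0.16, adjusted p = 0.22). The control libraries of NUP62 spread over a wider range than the treated ones, and the groups overlapped. NUP54 was at 17.1, 15.2 and 16.6 CPM and 15.6, 17.6 and 16.6 CPM (0.02 ± 0.12, adjusted p = 0.94). NUP98, a repeat protein that binds RAE1 and is a partner in leukaemia fusions, was at 77.3, 74.3 and 71.6 CPM and 82.3, 85.6 and 78.2 CPM (0.14 ± 0.07, adjusted p = 0.13). Every treated NUP98 library lay above every control by a small margin.

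Among the transmembrane proteins, NDC1 was at 65.6, 59 and 57.5 CPM in controls and 73.9, 75.4 and 72.1 CPM in treated libraries, without overlap (0.28 ± 0.06, adjusted p = 0.007). In the GC-corrected fit NDC1 was at 0.08 and was not called (adjusted p = 0.26). POM121 was at 58.3, 54.8 and 62.4 CPM and 58.7, 60 and 52.5 CPM (-0.04 ± 0.08, adjusted p = 0.79). NUP210 was at 128, 123 and 136 CPM and 135, 122 and 134 CPM (0.01 ± 0.05, adjusted p = 0.92). The last 2 overlapped between treated and control libraries, and the 95% interval of the NUP210 value ran from -0.09 to 0.12.

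All 6 importin alpha genes were called higher after H3B-8800 under the MHCC-97H label, 3 of them without control library 2 and 3 in the GC-corrected fit. KPNA2 is the family member most tied to proliferating cells. It was at 51.4, 45.2 and 46 CPM in controls and 67.6, 64.6 and 62.6 CPM with the compound, without overlap (0.45 ± 0.06, adjusted p = 0.0011). KPNA1 was at 27.8, 21.6 and 19 CPM and 34.9, 35.4 and 40 CPM (0.69 ± 0.15, adjusted p = 0.0052). KPNA6 was at 88.7, 78.2 and 81.4 CPM and 106, 109 and 112 CPM (0.40 ± 0.09, adjusted p = 0.0076). KPNA4 was at 50.7, 43.8 and 46.5 CPM and 62, 64.4 and 59.9 CPM (0.40 ± 0.11, adjusted p = 0.013). In each of these 4 genes the lowest treated library exceeded the highest control. KPNA4 lost its call without control library 2 (adjusted p = 0.056). KPNA5 (0.65 ± 0.20, adjusted p = 0.027) and KPNA3 (0.29 ± 0.09, adjusted p = 0.036) were the least firm of the family. KPNA3 kept its call only without control library 1, with an adjusted p of up to 0.16 in the other leave-out fits. KPNA5 kept its call without control library 1 and without treated library 3, with an adjusted p of up to 0.11 in the others. GC-corrected, the genes that lost their calls were KPNA4 (0.02, adjusted p = 0.83), KPNA3 (0.10, adjusted p = 0.48) and KPNA5 (0.26, adjusted p = 0.31).

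Of 11 importers of the importin beta family, 7 rose and 0 fell. KPNB1, importin beta itself, was at 445, 368 and 381 CPM in controls and 552, 565 and 561 CPM with the compound (0.49 ± 0.07, adjusted p = 0.0013). IPO7, which carries ribosomal proteins and, with KPNB1, linker histone, was at 168, 134 and 135 CPM and 237, 233 and 224 CPM (0.67 ± 0.10, adjusted p = 0.0015). IPO9, a histone importer, was at 152, 124 and 136 CPM and 194, 184 and 197 CPM (0.48 ± 0.09, adjusted p = 0.0027). IPO5, another importer of ribosomal proteins and histones, was at 246, 207 and 211 CPM and 283, 290 and 274 CPM (0.35 ± 0.07, adjusted p = 0.0029). The treated libraries of all 4 genes lay within a narrow band above the controls, and the first control library was again the highest of its group. IPO8 (0.53 ± 0.12, adjusted p = 0.0055) and TNPO1 (0.48 ± 0.11, adjusted p = 0.0071), the carrier of hnRNP proteins, were also higher. TNPO3, which imports the SR splicing factors, was at 0.27 ± 0.07 (adjusted p = 0.014) and lost its call without control library 2 (adjusted p = 0.063). TNPO2, the close paralog of TNPO1, was at -0.16 ± 0.11 and did not pass, as did IPO13 (-0.10 ± 0.09), IPO11 (0.27 ± 0.14) and IPO4 (0.32 ± 0.37). IPO4 was the least precise of the members, with control libraries at 11.8, 16.1 and 34 CPM. In the GC-corrected fit IPO5 was at -0.01 (adjusted p = 0.98), TNPO1 at 0.04 (adjusted p = 0.48), IPO11 at -0.05 and IPO13 at 0.11, none of them called.

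Exportins carry cargo out of the nucleus, and 5 of the 7 rose. XPO4, whose best known cargo is a translation factor, was at 5.27, 4.83 and 4.6 CPM in controls and 10.2, 12 and 10.2 CPM with H3B-8800 (1.14 ± 0.21, adjusted p = 0.0029). XPO7, a receptor with a broad cargo range, was at 137, 117 and 124 CPM and 177, 177 and 169 CPM (0.47 ± 0.08, adjusted p = 0.0018). XPOT, the exporter of transfer RNA, was at 206, 185 and 187 CPM and 265, 269 and 254 CPM (0.45 ± 0.08, adjusted p = 0.0031). The treated level of XPO4 was about as far above its controls as that of TPR and RANBP2, again from a low control level. CSE1L, which returns importin alpha to the cytoplasm, was at 160, 165 and 151 CPM and 188, 201 and 180 CPM (0.26 ± 0.05, adjusted p = 0.0037). XPO5, the exporter of microRNA precursors, was higher by 0.23 ± 0.05 (adjusted p = 0.0063). XPO1, the main exporter of proteins with a leucine-rich export signal, was at 130, 115 and 115 CPM in controls and 162, 135 and 146 CPM in treated libraries. These did not overlap, but the value of 0.30 ± 0.12 did not pass the test (adjusted p = 0.084). XPO1 was called with a replicate block (adjusted p = 0.00099), with DESeq2 (0.042), with library totals (0.03) and in a separate fit of the 6 libraries (0.013), at values between 0.29 and 0.43. In the GC-corrected fit its direction turned, to -0.13 (adjusted p = 0.19), and CSE1L was at 0.09 and not called (adjusted p = 0.35). XPO6, the exporter of actin, was at -0.05 ± 0.06.

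With HCT-116 or MDA-MB-231 on the label, 0 of the 52 members passed the test, where 5 genes in all (0.0351%) did under each label. At an unadjusted p under 0.05 there were 6 members under MDA-MB-231 and 1, NUP62, under HCT-116, and DESeq2 also called 0 members under both. The median log2 fold change of the members was -0.074 under MDA-MB-231, where 36 members had a negative value and 16 a positive one. It was -0.024 under HCT-116, with 30 negative and 22 positive. The range was -0.47 to 0.37 under MDA-MB-231 and -0.22 to 0.40 under HCT-116. The treated MDA-MB-231 libraries lay below all controls for 13 members, against 9.86% of all genes, and above them for 2, NUP188 and NUP210, against 8.67% of all genes. Under HCT-116 the groups did not overlap for 1 member in each direction, NUP93 above and CSE1L below, against 3.71% and 3.29% of all genes.

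The basket genes and RANBP2 were compared library by library under these labels. TPR was at 132, 126 and 105 CPM in the MDA-MB-231 controls and 102, 90.4 and 81.4 CPM with H3B-8800, and at 140, 61.6 and 125 CPM and 134, 49.7 and 135 CPM under HCT-116. RANBP2 was at 69.8, 62.3 and 55.3 CPM and 51.1, 47.2 and 39.4 CPM under MDA-MB-231, and at 72.2, 39.6 and 74.4 CPM and 64.4, 30.2 and 69.5 CPM under HCT-116. NUP153 was at 74.2, 70.9 and 63.2 CPM and 66.4, 63.6 and 58.7 CPM under MDA-MB-231, and at 77.6, 56.5 and 73.8 CPM and 72.2, 50.9 and 73.1 CPM under HCT-116. Treated MDA-MB-231 libraries were below all controls for TPR and RANBP2, with fold changes of -0.41 ± 0.33 and -0.45 ± 0.27 that did not pass the test. Under HCT-116 the second library of each treatment was the lowest for all 3 genes. NUP50 was at 54.5, 53.2 and 52.6 CPM and 42.7, 53.8 and 46.7 CPM under MDA-MB-231, and at 54.9, 46.4 and 51.8 CPM and 46, 47.1 and 56.7 CPM under HCT-116. Its treated and control libraries overlapped under both labels.

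These second HCT-116 libraries had the lowest median deviation of the members among the 18 libraries. The median deviation of the 52 members from their group mean was -0.10 (log2) in the DMSO library and -0.16 in the H3B-8800 library, against 0 and 0.01 over all genes. In the same libraries the deviation rose with GC content, with Spearman correlations of 0.55 and 0.59 across the 11099 genes, not only the members. In the other 4 HCT-116 libraries these correlations ran from -0.46 to -0.31. Under MDA-MB-231 they ran from -0.39 in treated library 1 to 0.48 in treated library 3. Genes of a library share its preparation and depth, so these correlations are descriptions. Leaving out either library gave 0 member calls under the HCT-116 label. Deviations of same-numbered treated and control libraries of this label had correlations across genes of 0.21, 0.41 and 0.12. Pairs with different numbers ran from -0.32 to 0.21, the highest being control 1 with treated 3. A block for the replicate number also gave 0 member calls.

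Of the scaffold proteins under these labels, NUP205 was at 106, 99.7 and 94.3 CPM in the MDA-MB-231 controls and 86.6, 88.9 and 83.7 CPM with the compound, and at 108, 76.9 and 107 CPM and 107, 67.5 and 92.5 CPM under HCT-116. NUP155 was at 50.1, 44 and 40.7 CPM and 40.6, 38.8 and 34.8 CPM, and at 42.9, 38.1 and 43.5 CPM and 43.6, 31.4 and 43.1 CPM. NUP188 was at 104, 104 and 109 CPM and 110, 110 and 111 CPM, and at 109, 108 and 107 CPM and 112, 113 and 108 CPM. The paralogs NUP205 and NUP188 lay on opposite sides of their controls under MDA-MB-231, below and above, neither past the test (-0.21 ± 0.17 and 0.07 ± 0.04). NUP35 was at 7.61, 5.54 and 7.35 CPM and 9.24, 9.92 and 7.35 CPM, and at 8.12, 6.64 and 8.48 CPM and 6.25, 7.68 and 8.11 CPM. Of the Y complex, NUP133 was at 66.5, 61 and 58.4 CPM and 63.2, 56.2 and 52.5 CPM, and at 66.5, 53.9 and 60.4 CPM and 62.2, 51.6 and 59.6 CPM. NUP160 was at 72.1, 74.8 and 65.7 CPM and 68.5, 62.3 and 54.4 CPM, and at 76.1, 58.6 and 73.3 CPM and 81.4, 48.2 and 66.4 CPM. Treated and control libraries of NUP35, NUP133 and NUP160 overlapped under both labels. NUP85 was at 67.5, 67.7 and 74.7 CPM and 66.6, 69 and 73.3 CPM, and at 67.6, 74 and 68.1 CPM and 66.9, 77.8 and 67.7 CPM. NUP43 was at 45, 43.4 and 45.7 CPM and 48.2, 47.9 and 43.9 CPM, and at 43.7, 43.6 and 43.4 CPM and 48.1, 39.4 and 43.1 CPM. Treated and control libraries of both genes overlapped. NUP107 had the smallest unadjusted p of the members under MDA-MB-231, 0.0096, at -0.25 ± 0.08 (adjusted p = 0.57).

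For the cytoplasmic side, NUP88 was at 58.3, 57.2 and 54.1 CPM in MDA-MB-231 controls and 53, 54.4 and 54.9 CPM with the compound, and at 58.1, 56.2 and 57.1 CPM and 61.4, 50.6 and 61.4 CPM under HCT-116. NUP214 was at 91.5, 88.5 and 90.3 CPM and 85.7, 89.4 and 96.7 CPM, and at 82.3, 94.1 and 92.4 CPM and 96.9, 92.2 and 90.5 CPM. AAAS was at 44.4, 48.4 and 51.5 CPM and 46.1, 47.5 and 55.8 CPM, and at 46, 51.3 and 44.3 CPM and 45.8, 52.8 and 48.8 CPM. The groups of all 3 genes overlapped. In the channel, NUP58 was at 25.1, 25 and 24.8 CPM and 23.8, 26.7 and 23.5 CPM, and at 29.4, 21.2 and 26.8 CPM and 28.1, 16.8 and 27.1 CPM. NUP62 was at 140, 158 and 150 CPM and 145, 155 and 153 CPM, and at 146, 97.2 and 90.5 CPM and 138, 153 and 147 CPM. The HCT-116 controls of NUP62 were low in libraries 2 and 3, and its value there was 0.40 ± 0.16 (unadjusted p = 0.023, adjusted p = 0.98). NUP62 overlaps exons of ATF5 and IL4I1 in the annotation. NUP54 was at 27, 29.2 and 28.3 CPM and 28.7, 31 and 23 CPM, and at 31.5, 25.1 and 25.3 CPM and 29.7, 24.2 and 28.6 CPM. NUP98 was at 145, 162 and 168 CPM and 155, 167 and 167 CPM, and at 163, 156 and 161 CPM and 156, 166 and 183 CPM. Neither showed separate groups. Of the transmembrane proteins, NDC1 was at 55.1, 53.7 and 55.7 CPM and 52.8, 52.2 and 48.9 CPM, and at 52.3, 48.8 and 54.2 CPM and 55, 49.4 and 56 CPM. POM121 was at 92.6, 102 and 104 CPM and 97.3, 108 and 113 CPM, and at 103, 99.3 and 102 CPM and 90.6, 98.5 and 106 CPM. NUP210 was at 523, 530 and 529 CPM and 530, 535 and 549 CPM, and at 533, 564 and 536 CPM and 534, 569 and 525 CPM. Under MDA-MB-231 all treated NDC1 libraries were below the controls and all treated NUP210 libraries were above them by a small margin, and the groups overlapped elsewhere.

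Among the receptors, KPNA2 was at 176, 178 and 171 CPM in MDA-MB-231 controls and 167, 160 and 167 CPM with H3B-8800, and at 161, 154 and 170 CPM and 175, 149 and 168 CPM under HCT-116. KPNA1 was at 47.7, 47 and 45.7 CPM and 49.8, 41.5 and 41.1 CPM, and at 49.3, 35.8 and 47.5 CPM and 48.3, 36.8 and 47.5 CPM. KPNA6 was at 84.8, 85.1 and 77.8 CPM and 81.2, 88.9 and 77.2 CPM, and at 87, 74.1 and 88.7 CPM and 87.7, 68 and 84.4 CPM. Of these importin alpha genes, KPNA2 had all treated MDA-MB-231 libraries below the controls, and the other combinations overlapped. KPNA4 was at 80.9, 76 and 74.3 CPM and 75.4, 66.8 and 63.9 CPM, and at 77.2, 64.8 and 78 CPM and 78.3, 60.6 and 82.1 CPM, also with overlap. KPNB1 was at 436, 425 and 422 CPM and 461, 422 and 421 CPM, and at 460, 440 and 460 CPM and 465, 384 and 456 CPM. IPO7 was at 317, 316 and 291 CPM and 296, 294 and 262 CPM, and at 337, 283 and 322 CPM and 313, 259 and 340 CPM. The treated and control libraries of KPNB1 and IPO7 overlapped. IPO9 was at 152, 148 and 144 CPM and 142, 144 and 140 CPM, and at 162, 127 and 152 CPM and 153, 128 and 150 CPM. IPO5 was at 75, 76.7 and 69.8 CPM and 71.3, 71.9 and 69.4 CPM, and at 73.2, 71.4 and 74 CPM and 74.8, 65.1 and 68.9 CPM. Treated IPO9 libraries were below the controls under MDA-MB-231, by less than the rounding of these values. The second HCT-116 library with H3B-8800 was the lowest of its group for both genes.

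Among exportins, XPO4 was at 9.48, 11.3 and 9.17 CPM in MDA-MB-231 controls and 8.1, 7.35 and 6.19 CPM with H3B-8800, and at 10.2, 6.28 and 9.45 CPM and 9.11, 5.47 and 10 CPM under HCT-116. Its MDA-MB-231 libraries did not overlap, and its value of -0.47 ± 0.21 was the lowest of the members there (unadjusted p = 0.039, adjusted p = 0.67). XPO7 was at 129, 121 and 115 CPM and 121, 117 and 113 CPM, and at 130, 112 and 125 CPM and 125, 103 and 117 CPM. XPOT was at 218, 216 and 203 CPM and 202, 204 and 178 CPM, and at 196, 183 and 210 CPM and 227, 175 and 207 CPM. Both overlapped between treated and control libraries. CSE1L was at 295, 302 and 290 CPM and 277, 276 and 248 CPM, and at 302, 307 and 300 CPM and 290, 293 and 292 CPM. CSE1L was below all controls in the treated libraries of both labels, by small margins (-0.15 ± 0.05 and -0.05 ± 0.05). XPO1 was at 251, 247 and 213 CPM and 231, 219 and 183 CPM, and at 258, 204 and 241 CPM and 241, 184 and 243 CPM, with overlap under both labels.

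The H3B-8800 effect was tested for a difference between labels. Against MDA-MB-231 it was higher under MHCC-97H for 29 members and lower for 1, AAAS, which is 30 of 52, against 20.2% of all genes (10.5% higher and 9.67% lower). The median difference was 0.437 over the members and -0.056 over all genes. Against HCT-116 it was higher for 20 members and lower for 1, again AAAS, against 13.2% of all genes (7.01% higher and 6.18% lower), with a median of 0.382 against -0.061. Between MDA-MB-231 and HCT-116, 0 members differed, against 0.0351% of all genes. At an unadjusted p under 0.05 there were 2 members, and DESeq2 called 0. The largest differences from MDA-MB-231 were 1.66 ± 0.40 in RANBP2 (adjusted p = 0.014), 1.61 ± 0.47 in TPR (0.028), 1.61 ± 0.30 in XPO4 (0.0056) and 1.27 ± 0.24 in NUP205 (0.0061). The 21 differences from HCT-116 fell to 6 without MHCC-97H control library 3, without HCT-116 control library 1 or without HCT-116 control library 3, to 8 without MHCC-97H control library 2, to 11 or 12 without MHCC-97H treated library 2 or 1, and to 0 when the 12 libraries of these labels were fitted on their own. The shares of all genes called in those fits are not given here. Both comparisons use the same MHCC-97H libraries.

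Levels without the compound also differed between labels. Of the 52 members, 42 differed between the MHCC-97H and MDA-MB-231 controls, against 82.7% of all genes, so the count lies near the background. The direction was 28 lower and 14 higher under MHCC-97H, against 43.2% and 39.5% of all genes, and the median difference was -0.42 against -0.091. Between the MHCC-97H and HCT-116 controls 29 members were lower and 15 higher, against 43% and 39.5% of all genes, 44 in all against 82.5%. Between the MDA-MB-231 and HCT-116 controls 0 members differed, against 0.0351% of all genes, and DESeq2 gave 0 as well, with 1 member at an unadjusted p under 0.05. Against MDA-MB-231, 19 of the 28 pore proteins were lower and 7 higher, with a median of -0.725. Among the 24 receptors 9 were lower and 7 higher, with a median of -0.107, and the 2 kinds were not tested against each other. All 3 basket genes and 6 of 7 Y complex genes were lower, while the inner ring had 3 higher and 2 lower.

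The 6 members with the largest difference between these controls have been given above by library, and none of them overlapped between the MHCC-97H and the other controls. Against MDA-MB-231 controls, the log2 difference of RANBP2 was -3.15 ± 0.30 (adjusted p = 1.1e-07) and that of TPR -2.70 ± 0.35 (adjusted p = 3.6e-06). NUP210, a transmembrane protein whose level is known to vary between tissues, differed by -2.03 ± 0.05 (adjusted p = 6.5e-15). KPNA2 differed by -1.88 ± 0.07 (adjusted p = 3.1e-13) and NUP62 by -1.87 ± 0.16 (adjusted p = 2.7e-08). NUP58 went the other way, at 2.25 ± 0.15 (adjusted p = 1.4e-09). The partners of the channel complex thus differed in direction, with NUP58 higher, and NUP62 and NUP54 (-0.79 ± 0.12) lower. Importin alpha genes were also split, with KPNA3 (1.24 ± 0.10) and KPNA5 (0.52 ± 0.20) higher and KPNA1, KPNA2 and KPNA4 lower. IPO5 was higher by 1.58 ± 0.07. KPNB1 did not pass against MDA-MB-231 (-0.10 ± 0.07), with a 95% interval of -0.26 to 0.05.

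**Figure D3:**
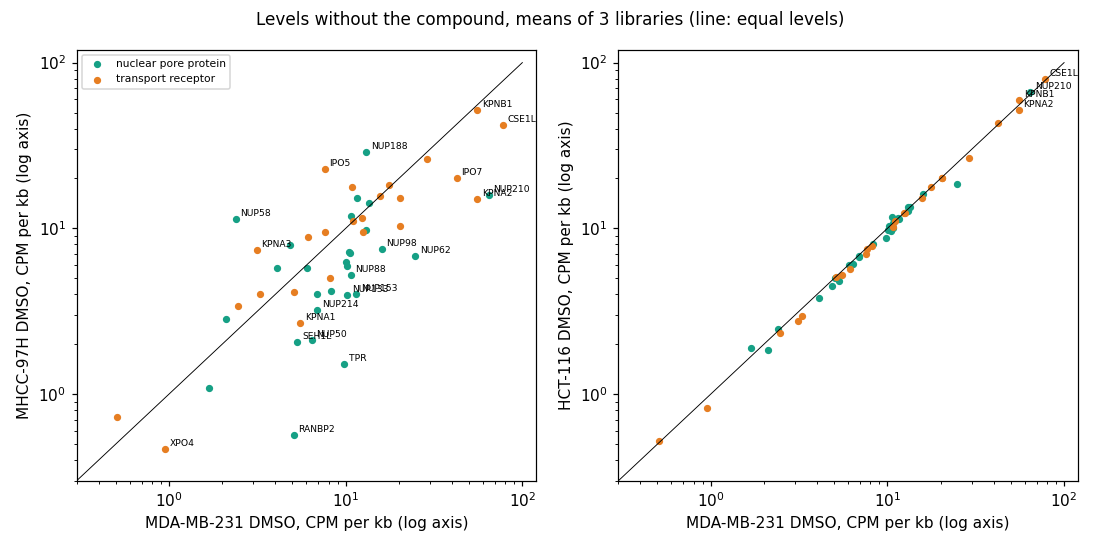
Mean level of each of the 52 genes in DMSO libraries, as CPM per kb of exonic length on log axes, under MHCC-97H (left y axis) or HCT-116 (right y axis) against MDA-MB-231 (x axes), with pore proteins in green and receptors in orange. RANBP2, TPR and NUP210 fall far below the line of equal levels at left and NUP58 above it, and at right the genes lie close to the line.

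Levels of different genes are set side by side per kb of exonic length, which joins all annotated exons of a gene. The length of the transcripts expressed was not measured, so the order is approximate. In MHCC-97H controls KPNB1 was the most abundant member, at 51.8 CPM per kb, followed by CSE1L at 41.8 and NUP188 at 28.8. XPOT (26.2) and IPO5 (22.9) came next. The lowest were XPO4 at 0.467, RANBP2 at 0.569 and KPNA5 at 0.727 CPM per kb. In MDA-MB-231 controls the order began with CSE1L at 77.8, NUP210 at 64.4, KPNB1 at 55.7 and KPNA2 at 55.6 CPM per kb. KPNA5 (0.507) and XPO4 (0.95) were the lowest. After H3B-8800 under MHCC-97H, KPNB1 reached 72.8, RANBP2 1.32, TPR 3.47 and XPO4 1.03 CPM per kb. RANBP2 and TPR were therefore still below their MDA-MB-231 control levels of 5.08 and 9.80 CPM per kb. The H3B-8800 effect under MHCC-97H and the control differences between labels use the same MHCC-97H DMSO libraries. A low level in these libraries enters both, so they are not independent.

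The members have longer, more intron-rich and more AT-rich transcripts than most genes. Their median exonic length was 7510 bases against 4930 over all genes, the median intron number 22 against 8, and the median GC content 43.5% against 49.4%. Under MHCC-97H the fold change with H3B-8800 was lower in GC-rich genes, with a Spearman correlation across genes of -0.44 over the 52 members and -0.53 over 14223 genes. Genes were ranked by GC content and divided into 4 bins of equal size. In the lowest bin, up to 42.5% GC, 17 of 24 members were higher, against 28.5% of all its genes. In the next, up to 49.4%, 13 of 17 were higher, against 19% of its genes. The bin up to 57.6% held 6 members, 1 higher and 2 lower, against 3.46% higher and 19.1% lower of its genes. The highest bin held 5, of which 0 were called, against 0.45% higher and 28.9% lower. AAAS, at 57.1% GC, and NUP85, at 51.4%, lie in the bin up to 57.6%, and NUP214, at 51.5%, was the single higher call there. The same correlation was positive under MDA-MB-231 (0.53 over the members and 0.31 over all genes) and under HCT-116 (0.44 and 0.18). Under MHCC-97H the correlation with length was 0.33 over the members and 0.36 over all genes. With intron number it was 0.23 and 0.22.

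When a trend on GC content and length was removed from each library, 20 members were higher under MHCC-97H and 3 lower, against 15% of all genes called. The member median fell to 0.13, with 0 over all genes. NUP205 (0.85, adjusted p = 0.0014), NUP153 (0.79, adjusted p = 0.0025), XPO4 (0.73, adjusted p = 0.003), RANBP2 (0.77, adjusted p = 0.02) and NUP88 (0.55, adjusted p = 0.0015) remained higher. TPR was at 0.78 with an adjusted p of 0.056. IPO5 (-0.01), KPNA4 (0.02), TNPO1 (0.04), NUP58 (0.06), NDC1 (0.08), CSE1L (0.09) and KPNA3 (0.10) were all at 0.10 or below. Of the 33 calls made without the correction, 19 were shared and 14 lost: these 7, TPR, NUP35, NUP50, NUP214, KPNA5, NUP85 (-0.14) and AAAS (-0.09). The 4 new calls were NUP188, higher at 0.12, and SEH1L (-0.40), NUP93 (-0.36) and NUP107 (-0.19), lower. The value changed sign in 11 members, of which IPO5 alone had been called: XPO1 (-0.13), NUP54 (-0.15), IPO11 (-0.05), NUP42 (-0.05), NUP43 (-0.03), NUP98 (-0.01), IPO13 (0.11) and XPO6 (0.04) did so beside IPO5, NUP107 and SEH1L. Whether the GC trend is technical was not tested.

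**Figure D4:**
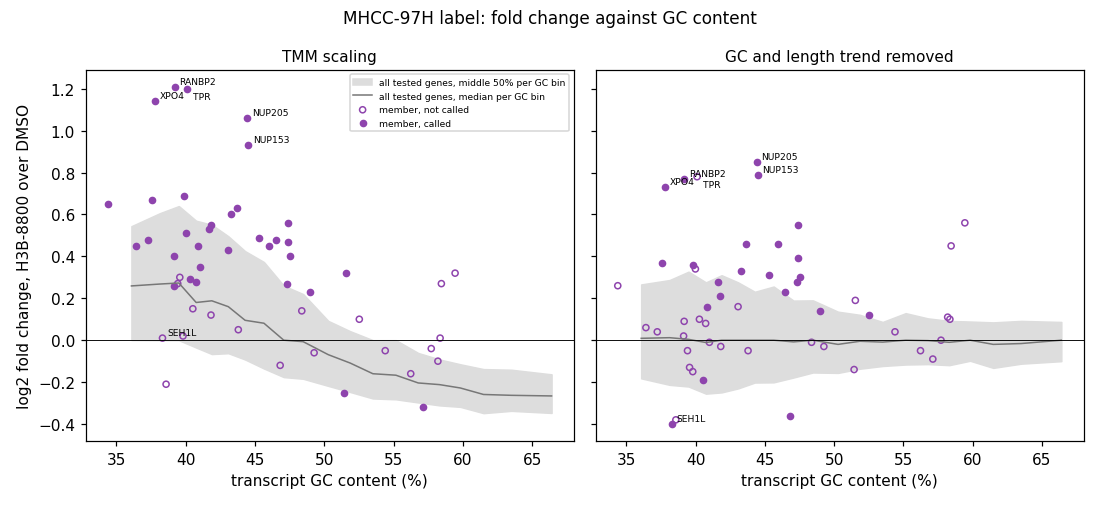
The log2 fold change of H3B-8800 over DMSO under the MHCC-97H label (y axis) against transcript GC content in percent (x axis), with TMM scaling at left and after removal of a trend on GC content and length at right. Purple points are the 52 genes, filled where called, and the grey band and line are the middle 50% and the median of all tested genes in GC bins; at left the band falls with GC content, and NUP205, NUP153, XPO4, RANBP2 and TPR lie above it in both panels.

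The Ran cycle genes, which set the direction of transport, held 0 higher and 3 lower of 8 genes under MHCC-97H, with a median of -0.243, against 12.9% higher and 14.7% lower of all genes. RANGAP1, the GTPase-activating protein docked on RANBP2, was at 141, 124 and 146 CPM in controls and 123, 97.3 and 101 CPM with H3B-8800 (-0.36 ± 0.12, adjusted p = 0.039). RANBP1, its soluble co-factor, was at 77.3, 80.9 and 83.7 CPM and 68.8, 64.1 and 68.9 CPM (-0.26 ± 0.06, adjusted p = 0.0088). RANBP3, a co-factor of XPO1, was at 36.1, 37.3 and 35.9 CPM and 29.9, 25.5 and 32 CPM (-0.32 ± 0.08, adjusted p = 0.008). In these 3 genes the treated libraries were below the controls, and with library totals 0 of the 8 were called. GC-corrected, 2 of the 8 were lower with a median of -0.056, and 1 was lower in the separate fit and with block and GC correction. RCC2 was at -0.15 ± 0.05 and did not pass (adjusted p = 0.05). Of 23 messenger RNA export genes 2 were higher and 4 lower, 26.1% against 27.6% of all genes, so the count lies near the background. Their median was -0.117, and 0.02 with library totals, where 5 were higher and 1 lower. The lower count was 2 in the GC-corrected fit and without each MHCC-97H library in turn except control library 1. The 4 with the smallest adjusted p were ALYREF (-0.34 ± 0.07), THOC2 (1.07 ± 0.24), THOC7 (-0.26 ± 0.06) and FYTTD1 (0.26 ± 0.07). Of 8 further pore and receptor genes tested, 3 were higher, AHCTF1 (0.93 ± 0.22), RANBP6 (0.59 ± 0.18) and RANBP17 (0.58 ± 0.20), against 12.9% of all genes. This count was 1 in the GC-corrected fit and without each MHCC-97H library in turn except treated library 3, without which it was 2. AHCTF1, which seeds pore assembly on chromatin and joins the Y complex, was at 7.22, 5.6 and 6.52 CPM in controls and 12.4, 10 and 14.4 CPM after treatment, with no overlap.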

How the data were processed

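The authors deposited a table of raw counts, whole numbers of reads for each Ensembl gene. fastp, HISAT2 and the build GRCh38 are named in the submitters' processing notes, while tool versions, the read counter, its annotation, the strand setting and the kit were not given in the sources used here. Groups came from the labels. Gene symbols came from a table of Ensembl identifiers, and length, GC content, intron number and overlaps from GENCODE 29 on GRCh38. That release held 20224 of the 20263 genes. Exons of 26 members overlap another gene.

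The quasi-likelihood fit used edgeR 4.0.16 under R 4.3.3 with TMM scaling, filterByExpr by group, 1 mean per group over all 18 libraries, and the robust F test, and p-values were adjusted by Benjamini-Hochberg over 14234 genes. CPM per kb is per exonic length. The procedure was tested on simulated data. Alternatives used other scalings and filters, a replicate block, limma 3.58.1 voom, DESeq2 1.42.0, removal of a per-library GC and length trend (splines with 5 degrees of freedom), separate fits, and each library left out.

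The members and lists were chosen with earlier results of these data known. Every member may be named. Values in every library are given for up to 4 members of each role with the smallest adjusted p under MHCC-97H and for the 6 with the largest difference between MHCC-97H and MDA-MB-231 controls. The rule also took members with a minor-type intron, which were not identified here. XPO1 and IPO4 were given by library after their values were seen. For each other list up to 4 genes with the smallest adjusted p are named, and POM121C was named as the copy of POM121.

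Same-numbered treated and control libraries were taken as possible pairs in the replicate block. Under HCT-116 the correlations of their deviations were 0.21, 0.41 and 0.12. Control 1 with treated 3 was also at 0.21, so not every same-numbered pair stood apart. What a number marks is not in the labels, and under MHCC-97H the values of same-numbered pairs were -0.08, 0.04 and 0.03.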

Additional observations from a re-analysis of the deposited data

Results flagged for a closer look

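The H3B-8800 effect differed between labels for members of every role except the central channel (edgeR quasi-likelihood test of the difference between 2 effects, adjusted over all genes). Values are log2 differences, the effect under MHCC-97H minus the effect under the other label, and those from MDA-MB-231 come first. Pore proteins with a higher effect were RANBP2 (1.66), TPR (1.61), NUP205 (1.27), NUP153 (1.07), NUP160 (0.80), NUP155 (0.79), NUP133 (0.74), NUP88 (0.63), NUP50 (0.59), NUP107 (0.39), NDC1 (0.38) and NUP214 (0.31). AAAS was the single member with a lower effect (-0.37). Importin alpha genes were KPNA5 (0.90), KPNA1 (0.78), KPNA4 (0.57), KPNA2 (0.53), KPNA3 (0.46) and KPNA6 (0.40). Importers of the importin beta family were IPO7 (0.78), IPO8 (0.75), TNPO1 (0.64), IPO9 (0.54), KPNB1 (0.47) and IPO5 (0.41). Exportins were XPO4 (1.61), XPOT (0.57), XPO7 (0.52), CSE1L (0.40) and XPO5 (0.29). Adjusted p-values ran from 0.0047 for KPNA2 to 0.05 for NUP50.

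Against HCT-116 the pore proteins with a higher effect were RANBP2 (1.39), NUP205 (1.19), NUP153 (1.01), NUP133 (0.69), NUP160 (0.69), NUP155 (0.62) and NUP88 (0.55), and AAAS had a lower one (-0.38). Receptors were XPO4 (1.22), IPO7 (0.71), KPNA1 (0.69), IPO8 (0.62), XPO7 (0.56), KPNB1 (0.55), TNPO1 (0.52), IPO9 (0.52), KPNA6 (0.45), KPNA2 (0.43), IPO5 (0.42), XPOT (0.40) and CSE1L (0.31). Adjusted p-values ran from 0.012 for KPNB1 to 0.046 for AAAS. The difference for TPR, at an SE of 0.47 against MDA-MB-231, was the least precise of those named. Both sets share the MHCC-97H libraries, so they are not independent of each other.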

How the results depend on the processing

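Under MHCC-97H, 31 members were higher and 2 lower. After removal of a GC and length trend 20 were higher, and 20 also with a replicate block together with that removal. Of all genes, 15% and 17.2% were called in these fits in either direction, against 27.6% without the removal or block. The lower count was 1 with upper-quartile factors, 0 with library totals, and 1 to 2 when libraries were left out in turn. The member median of 0.321 was 0.458 with library totals, 0.13 with the trend removed, 0.13 with block and trend removal, 0.384 in the separate fit, and 0.284 to 0.377 with libraries left out. Removing the trend changed the sign of 11 members. Those called before or after it were NUP107 (-0.19), SEH1L (-0.40, and -0.39 with the block) and IPO5 (-0.01, and -0.01 with the block); the other 8, XPO1 (-0.13) among them, passed the test in neither fit. The difference in effect from MDA-MB-231 held for 14 members with the trend removed and 18 with block and trend removal, against 30. That from HCT-116 held for 9 with the trend removed, 0 in the separate fit, and 6 to 25 with libraries left out, against 21. The shares of all genes called for these differences in the alternative fits are not given here. A change in the members therefore cannot be told from a change over all genes. For the separate fit and the trend removal the cause was not tested.

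The replicate block alone gave 31 higher and 2 lower, against 32.8% of all genes called, with 31 of the 33 calls shared. It ended the calls of KPNA3 (adjusted p = 0.06) and NUP35 (0.074) and added XPO1 and NUP188. Block fits of DMSO levels between labels were not run, since a number does not join libraries across labels. Calls in all alternatives and leave-out fits held for NUP133, NUP160, NUP155, NUP205, NUP153, NUP88, KPNA2, KPNA6, KPNB1, IPO7, IPO8, IPO9, XPO4, XPO7 and XPOT. RANBP2 was lost with limma voom (adjusted p = 0.067). Voom called 28 higher and 2 lower, and DESeq2 32 and 2, against 28.5% and 30.2% of all genes called in either direction. Each member averaged over 4 CPM in each group, but raw counts of some were low. NUP35, for example, had 151, 90 and 149 counts in the MHCC-97H controls. The part of depth in the calls was not tested.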
